A study of Mus musculus with 9 samples.

Results

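The genes described here encode the proteins of the 2 ribosomes of a mouse cell, the cytosolic ribosome and the mitochondrial ribosome. Members were defined by symbol, Rpl or Rps followed by a number for the cytosolic family and Mrpl or Mrps followed by a number for the mitochondrial family. The families were chosen with earlier results of these data known. Of 10189 genes that had a promoter window in the authors' deposited table, 146 were members, 74 cytosolic and 72 mitochondrial. The rule matched 169 RefSeq genes in all. The other 23, 11 cytosolic and 12 mitochondrial, had no window and were not analysed here. They include the protein-coding genes Rpl17, Rpl39, Rps2, Mrpl15, Mrpl16, Mrpl36, Mrps18b and Mrps36. One of the 74 cytosolic members, Rpl6l, is listed by RefSeq as a pseudogene.

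The study used ATAC-seq, which marks accessible DNA by cutting and tagging it with the Tn5 transposase. The cells were HPC7, a mouse line of hematopoietic progenitors kept in medium with stem cell factor. All 3 groups carried a MIG retroviral vector: empty (EV), with FLAG-tagged wildtype Snai1, or with the mutant mut5Snai1. Each group had 3 libraries, 9 in all. Snai1 is a zinc finger repressor of transcription best known from epithelial-mesenchymal transition. Only the comparison of Snai1 with EV was analysed here. The labels give 1 parental line and do not say whether each library had its own transduction, so the p-values reflect spread among libraries that may be technical only.

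The authors' deposited table gives, for each window, 1 log2 concentration per group (the normalized read density of the window in DiffBind's terms), a p-value and a false discovery rate (FDR), and no value per library. The change quoted throughout is Snai1 minus EV on the log2 scale. A window counted as called where the authors' FDR was under 0.05. The implied standard error (SE) of a change is the SE that would give its p-value under a normal distribution. The sources used here do not give the depth of the libraries. Of 12 blood progenitor markers, 11 had a window, and 4 of these were called higher and 2 lower, beside 19.6% higher and 10.3% lower over all genes. Ptprc (10.16 in both groups) and Kit (a change of -0.08 from 11.57) were not called, while Tal1 was higher by 0.41 and Runx1 (-0.61, on chromosome 16) and Cd34 (-0.39) were lower. Of 9 fibroblast markers 2 had a window, Fap (0.38, FDR 0.0037) and Pdgfrb (0.08, FDR 0.671). The windows of some markers, Tal1 and Fap among them, lie inside the gene and not at its annotated start. Whether the changes at these markers bear on the results was not tested. These are accessibilities of promoters, and a window says nothing about the amount of RNA or protein.

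The cytosolic ribosome has a large subunit built with Rpl proteins, which forms peptide bonds, and a small subunit built with Rps proteins, which reads the mRNA. Its proteins are needed in near equal amounts, and most of their mRNAs start with a run of pyrimidines, the terminal oligopyrimidine tract, through which the mTOR pathway controls their translation. The mitochondrial ribosome, of bacterial descent, makes the few respiratory chain proteins that the mitochondrial genome encodes; all of its own proteins come from nuclear genes and are imported. Erythroid progenitors are especially sensitive to loss of cytosolic ribosomal proteins: inherited loss of 1 allele causes Diamond-Blackfan anaemia, and loss of RPS14 is tied to the anaemia of 5q- syndrome.

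The starts of 5 cytosolic genes are shown first, to compare the pyrimidine run at the start, for which the family is known, between genes. Each line gives 92 bases from RefSeq (GRCm38.p6, whose coordinates equal those of mm10), 5′ to 3′ on the coding strand, 80 before the annotated start and the first 12 of the transcript, with the longest pyrimidine run within 25 bases of the start in capitals. Rpl35a (chr16:33056402-33056493, plus strand) was the cytosolic gene with the largest decrease, Rpl7a (chr2:26910727-26910818, plus strand), Rps9 (chr7:3703961-3704052, plus strand) and Rpl37a (chr1:72711180-72711271, plus strand) increased, and Rpl28 (chr7:4792885-4792976, plus strand) was not called.
Rpl35a: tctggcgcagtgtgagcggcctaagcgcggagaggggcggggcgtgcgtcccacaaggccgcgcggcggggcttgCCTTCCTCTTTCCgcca
Rpl28: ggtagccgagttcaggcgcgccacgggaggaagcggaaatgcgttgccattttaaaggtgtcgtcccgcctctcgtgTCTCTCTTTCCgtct
Rpl7a: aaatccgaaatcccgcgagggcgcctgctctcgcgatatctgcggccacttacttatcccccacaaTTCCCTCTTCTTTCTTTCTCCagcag
Rps9: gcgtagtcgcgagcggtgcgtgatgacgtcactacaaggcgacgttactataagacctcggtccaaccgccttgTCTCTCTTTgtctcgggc
Rpl37a: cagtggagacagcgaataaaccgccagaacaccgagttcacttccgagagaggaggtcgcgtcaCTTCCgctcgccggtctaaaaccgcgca
The marked runs are 13 bases long at Rpl35a, 11 at Rpl28, 21 at Rpl7a, 9 at Rps9 and 5 at Rpl37a. The runs at Rpl35a, Rpl28, Rpl7a and Rps9 cover the start itself. Rpl37a has no long run.

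The mitochondrial genes are shown for a different element, the letters CCGGAAG or their reverse complement CTTCCGG, the core of sites bound by ETS factors, in capitals. Mrpl57 (chr14:57826159-57826250, plus strand), Mrpl53 (chr6:83109028-83109119, plus strand) and Mrpl43 (chr19:45006431-45006522, minus strand) increased, and Mrps6 (chr16:92058256-92058347, plus strand) decreased and has no match in these bases.
Mrpl57: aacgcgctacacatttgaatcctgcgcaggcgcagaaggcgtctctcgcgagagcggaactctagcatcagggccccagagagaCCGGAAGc
Mrpl53: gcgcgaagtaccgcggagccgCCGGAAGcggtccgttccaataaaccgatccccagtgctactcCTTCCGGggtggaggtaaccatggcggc
Mrpl43: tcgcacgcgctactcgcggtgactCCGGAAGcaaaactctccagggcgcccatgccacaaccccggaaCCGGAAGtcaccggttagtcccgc
Mrps6: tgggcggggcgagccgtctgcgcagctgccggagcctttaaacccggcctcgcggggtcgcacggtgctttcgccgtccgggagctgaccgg
Mrpl53 and Mrpl43 each hold 2 matches, and the match at Mrpl57 lies inside the transcript.

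Both families lay in the middle of the range of promoter accessibility. The medians and ranks here were taken over windows of both widths, with no correction for width. The median log2 concentration in EV was 10.82 over the 74 cytosolic genes, 10.66 over the 72 mitochondrial genes and 10.78 over all 10189 genes. An EV value between 10 and 12 was listed in the authors' deposited table for 64 cytosolic genes (86.5%) and 54 mitochondrial genes (75%), beside 67.7% of all genes. The most accessible cytosolic windows were those of Rps21 (12.39 in EV, 12.53 in Snai1), Rps19 (12.12 and 12.27) and Rpl13a (12.10 in Snai1, a change of 0.10). The least accessible belonged to Rpl3l (7.29 and 7.28), a paralog of Rpl3 known from striated muscle, then Rpl22 (8.17 and 8.23) and Rps4x (9.08 and 9.22), whose window lies inside the gene and not at its annotated start. Among mitochondrial genes, Mrpl18 (12.78 and 12.88), Mrps14 (12.49 and 12.18) and Mrpl41 (12.27 and 12.49) were highest, and Mrps23 (8.21 and 7.63), Mrpl48 (8.37 and 8.24) and Mrpl3 (9.18 and 9.17) were lowest. The start position that the Mrpl18 window was laid around is 238 bp from the start of the chaperonin gene Tcp1, and that of the Rpl18 window is 69 bp from the start of Sphk2, so these 2 values cannot be told apart from those of the neighbouring genes.

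**Figure D1:**
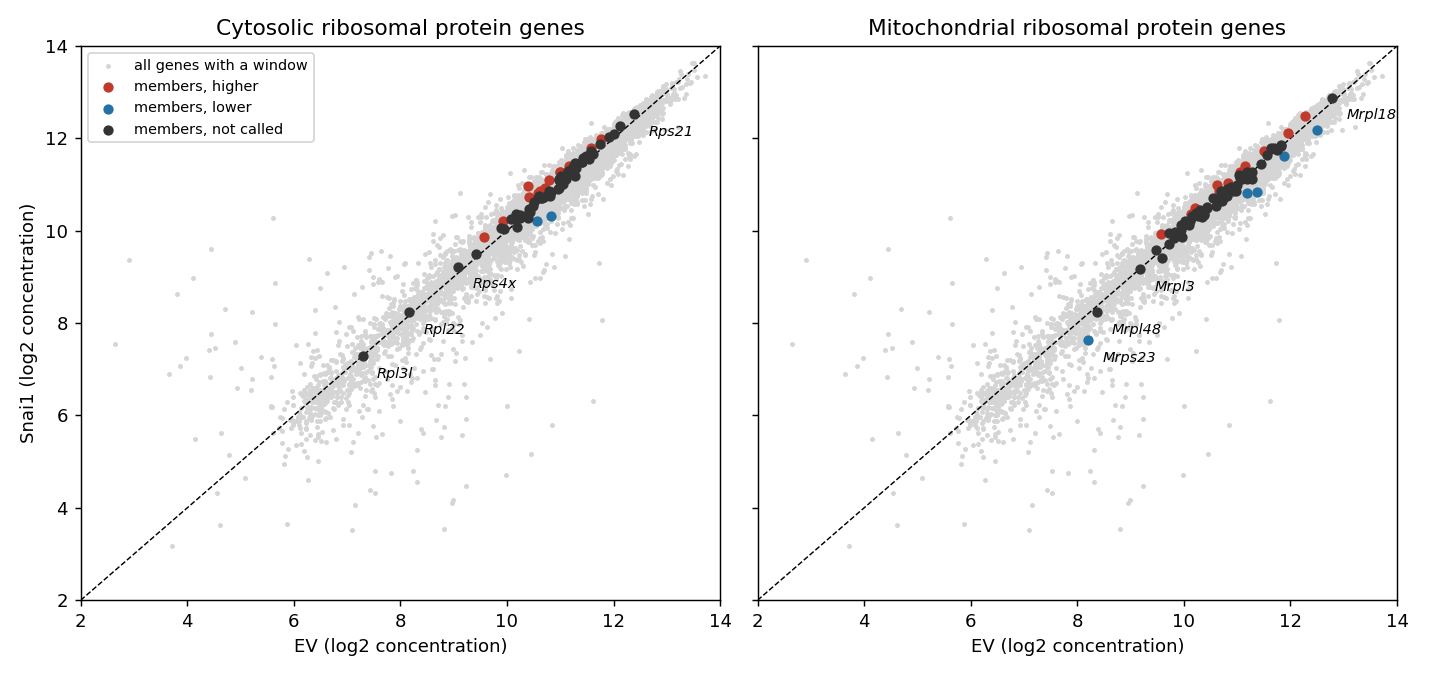
Log2 concentration in Snai1 against EV, in the authors' deposited table, for the cytosolic (left) and the mitochondrial genes (right) over all genes with a window in grey; the dashed line marks equal values. Members lie close to the line over a range from 7.29 to 12.78 in EV, while other genes spread farther from it, and Rpl3l and Mrps23 mark the low ends of the 2 families.

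Of the 74 cytosolic genes, 14 (18.9%) were more accessible in Snai1, 2 (2.70%) were less accessible and 58 were not called. Over all genes the authors called 29.9%, of which 19.6% of genes were higher and 10.3% lower, so the share of higher cytosolic genes was close to that of all genes. The median change was 0.09 log2 over the cytosolic genes and 0.08 over all genes, and 62 of the 74 lay above 0. Called increases ran from 0.20 to 0.57, with a median of 0.255, a factor of 1.19. The highest uncalled change was 0.21.

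The largest increase was at Rps20, a small subunit protein (chr4:3835500-3836600, the window of its 5′ end). The authors' deposited table lists 10.39 in EV and 10.96 in Snai1 for it, a change of 0.57 with an implied SE of 0.10 and an FDR of 2.82e-07. Next were Rpl37a, a zinc-binding large subunit protein (10.42 and 10.74, change 0.32, implied SE 0.07, FDR 1.45e-04), and Rps13, a small subunit protein (10.79 and 11.10, change 0.31, implied SE 0.07, FDR 3.14e-05). Rpl23, which besides its place in the large subunit can bind Mdm2, went from 9.56 to 9.87, the least accessible of the called members of its family. Its implied SE of 0.12 was also the widest among them, and its FDR was 0.0408.

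In the authors' deposited table the other 10 increases were smaller than 0.30. Rpl23a, which lies near the exit of the peptide tunnel, went from 9.93 to 10.21 (FDR 0.0152), and Rpl7a reached 11.27 in Snai1, a change of 0.27 (FDR 0.0174). Rpl22l1, the paralog of Rpl22, reached 11.26, a change of 0.26 (FDR 0.00902), whereas Rpl22 itself had a change of 0.06 (FDR 0.808); the difference between the paralogs was not tested. Rps9 went from 10.61 to 10.86 (FDR 0.0113), Rpl30 from 11.16 to 11.39 (FDR 0.00317) and Rpl13 from 10.59 to 10.82 (FDR 0.0167). Rpl7 went from 11.77 to 11.99 (FDR 0.0136). Rps15 and Rps3, which lines the entry of the mRNA channel, both had a change of 0.20, with FDRs of 0.0366 and 0.0296. Rpl4, with a slightly larger change (0.21) and a wider implied SE of 0.11, was not called (FDR 0.119).

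Only Rpl35a and Rpl24 were called lower in the cytosolic family. Rpl35a (chr16:33055482-33057482) went from 10.82 in EV to 10.31 in Snai1 in the authors' deposited table, a change of -0.52 with an implied SE of 0.07 and an FDR of 5.31e-11. Rpl24 (chr16:55965275-55967275), the gene affected by the Belly spot and tail mutation of the mouse, went from 10.56 to 10.20, a change of -0.36 with an implied SE of 0.08 and an FDR of 1.64e-04. Both encode large subunit proteins, and both lie on chromosome 16. At the other extreme, Rpl3l (-0.01) had the change nearest to 0, and Rps24 had 0.02, tied in size with Rps18 and Rpl9.

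**Figure D2:**
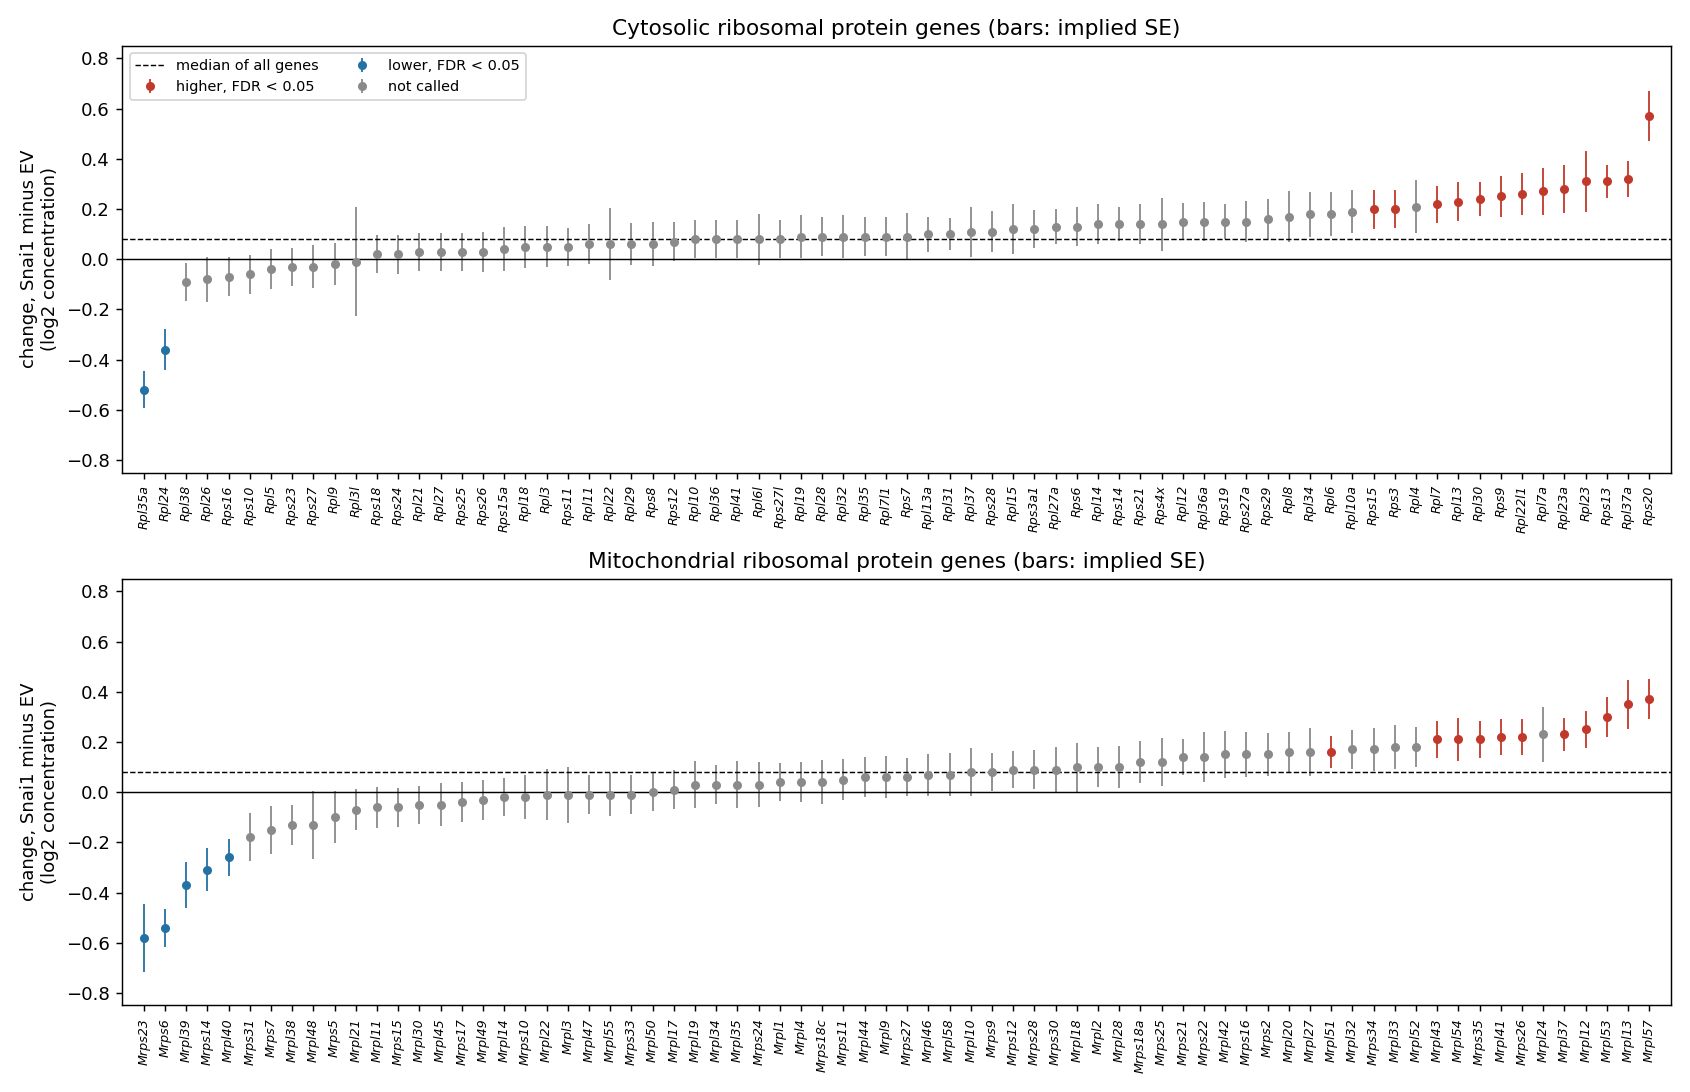
Change in log2 concentration, Snai1 minus EV, for 72 of the 74 cytosolic (top) and all 72 mitochondrial genes (bottom), in order of the change; bars are the implied SE, taken for changes under 0.1 as the median of windows of similar accessibility, and the dashed line is the median of all genes. Rps20 at 0.57 and Rpl35a at -0.52 stand apart at the ends of the cytosolic family, and 5 mitochondrial genes from Mrps23 (-0.58) to Mrpl40 (-0.26) are called lower.

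All 20 cytosolic genes listed for Diamond-Blackfan anaemia or 5q- syndrome had a window. None of the 20 was called higher, and 1, Rpl35a, was called lower, beside 19.6% higher and 10.3% lower over all genes. Their median change in the authors' deposited table was 0.045, and the other 54 cytosolic genes, with 14 called higher and 1 lower, had a median of 0.125. These counts are a description, and the difference between the groups of genes was not tested. Rps19, the gene most often mutated in the anaemia, went from 12.12 to 12.27 (change 0.15, FDR 0.0947). Rps14, the 5q- gene, went from 11.23 to 11.37 (change 0.14, FDR 0.102), and Rps29 from 11.57 to 11.72 (change 0.16, FDR 0.120). Rpl5 and Rpl11, which together with 5S rRNA bind Mdm2 and so stabilise p53 when ribosome assembly fails, had changes of -0.04 (FDR 0.709) and 0.06 (FDR 0.601).

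The authors' deposited table called no other gene of this list. Rpl15 (0.12), Rps28 (0.11), Rpl31 (0.10), Rps7 (0.09), Rpl35 (0.09), Rpl18 (0.05), Rps15a (0.04), Rps26 (0.03), Rpl27 (0.03) and Rps24 (0.02) had values above 0. Values below 0 were listed for Rps27 (-0.03), Rps10 (-0.06) and Rpl26 (-0.08). The smallest change called higher in the cytosolic family was 0.20.

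Of the 72 mitochondrial genes, 11 (15.3%) were more accessible in Snai1, 5 (6.94%) were less accessible and 56 were not called, beside the same shares of all genes, 19.6% higher and 10.3% lower. The median change was 0.06. Values above 0 were listed for 47 genes, values below 0 for 24 and a value of 0 for 1. Called increases ran from 0.16 to 0.37 with a median of 0.22, a factor of 1.16, and called decreases from -0.58 to -0.26 with a median of -0.37, a factor of 1.29. Uncalled members lay between -0.18 and 0.23.

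Mrpl57, a protein of the large subunit with no bacterial counterpart, had the largest increase. The authors' deposited table lists 10.63 in EV for its window (chr14:57825239-57827239, change 0.37, implied SE 0.08, FDR 5.37e-05). Mrpl13, the counterpart of bacterial L13, went from 9.58 to 9.93 (change 0.35, FDR 0.00230), and Mrpl53 from 10.20 to 10.50 (change 0.30, FDR 0.00124). Mrpl12, whose bacterial counterpart forms the stalk that contacts elongation factors, went from 11.14 to 11.39 (FDR 0.00363), and Mrpl37 from 11.05 to 11.28 (FDR 0.00296). Mrpl41 went from 12.27 to 12.49 (FDR 0.0126) and Mrps26 from 11.51 to 11.73 (FDR 0.0131). Mrps35, Mrpl43 and Mrpl54 each had a change of 0.21 (FDRs 0.0216, 0.0179 and 0.0438), and Mrpl51 had the smallest that was called, 0.16 (FDR 0.0479). Of the 11, 9 encode large subunit proteins and 2, Mrps26 and Mrps35, small subunit proteins.

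Mrps23, a small subunit protein, was the one with the largest decrease and also the least accessible of its family. In the authors' deposited table it went from 8.21 to 7.63 (chr11:88193106-88195106, change -0.58, implied SE 0.14, FDR 2.25e-04), and its EV value stood at percentile 7.14 of all genes. Mrps6, the counterpart of bacterial S6, went from 11.38 to 10.84 (chr16:92057336-92059336, change -0.54, implied SE 0.08, FDR 3.00e-11). Mrpl39 on the same chromosome went from 11.19 to 10.82 (change -0.37, FDR 4.12e-04), and Mrpl40, a gene of the region deleted in human 22q11 syndrome, from 11.87 to 11.61 (change -0.26, FDR 0.00257). Mrps14 on chromosome 1, with one of the most accessible windows, went from 12.49 to 12.18 (change -0.31, FDR 0.00218). The largest uncalled values were 0.23 at Mrpl24 (FDR 0.0958) and -0.18 at Mrps31 (FDR 0.139), and Mrpl50 (0.00) lay nearest to 0, followed by Mrpl22 (-0.01), which was tied with others.

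Changes in both families were narrower than over the genome as a whole. The standard deviation across genes was 0.14 log2 in the cytosolic family and 0.17 in the mitochondrial family, beside 0.40 across all other genes. It was also below 0.40 in lists described further down. It was 0.17 for mitochondrial translation factors, 0.18 for ribosome biogenesis, 0.20 for cytosolic translation factors and 0.25 for the respiratory chain. For mitochondrial and cytosolic synthetases it was 0.19 and 0.25. The quartiles differed less: 0.04 and 0.17 for cytosolic, -0.02 and 0.15 for mitochondrial, -0.05 and 0.18 for all other genes. A change of at least 0.4 in either direction was listed for 2 cytosolic genes (2.70%), 2 mitochondrial genes (2.78%) and 9.46% of all genes. A change of at least 1 was listed for 207 genes, none of them a member. The lowest EV value was 7.29 in the cytosolic family, 8.21 in the mitochondrial family and 2.65 among all other genes. Changes at those other genes ran from -5.3 to 6.45. The spreads were not compared at like accessibility. Genes are not independent replicates, and no test was run on these spreads.

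The counts by class below stand beside 19.6% called higher and 10.3% lower over all genes. By subunit, 8 of 44 cytosolic large subunit genes were called higher and 2 lower, and 6 of 30 small subunit genes higher and 0 lower, with median changes of 0.09 and 0.10. In the mitochondrial family 9 of 45 large subunit genes were called higher and 2 lower, and 2 of 27 small subunit genes higher and 3 lower, both with a median of 0.06. Both large subunit shares and the cytosolic small subunit share of higher genes were close to that of all genes. Proteins with the numbers of bacterial counterparts (Mrpl up to 36, Mrps up to 21) accounted for 39 members, 2 called higher and 2 lower. The 33 with later numbers, which are mostly additions of the mitochondrial lineage, had 9 called higher and 3 lower, and the medians were 0.04 and 0.07. Many cytosolic ribosomal protein genes hold small nucleolar RNA (snoRNA) genes in their introns, RNAs that guide the modification of rRNA. Of the 24 members with at least 1 annotated snoRNA inside, 8 were called higher and 0 lower (median 0.125), and of the 50 without, 6 higher and 2 lower (median 0.09). None of these differences was tested.

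**Figure D3:**
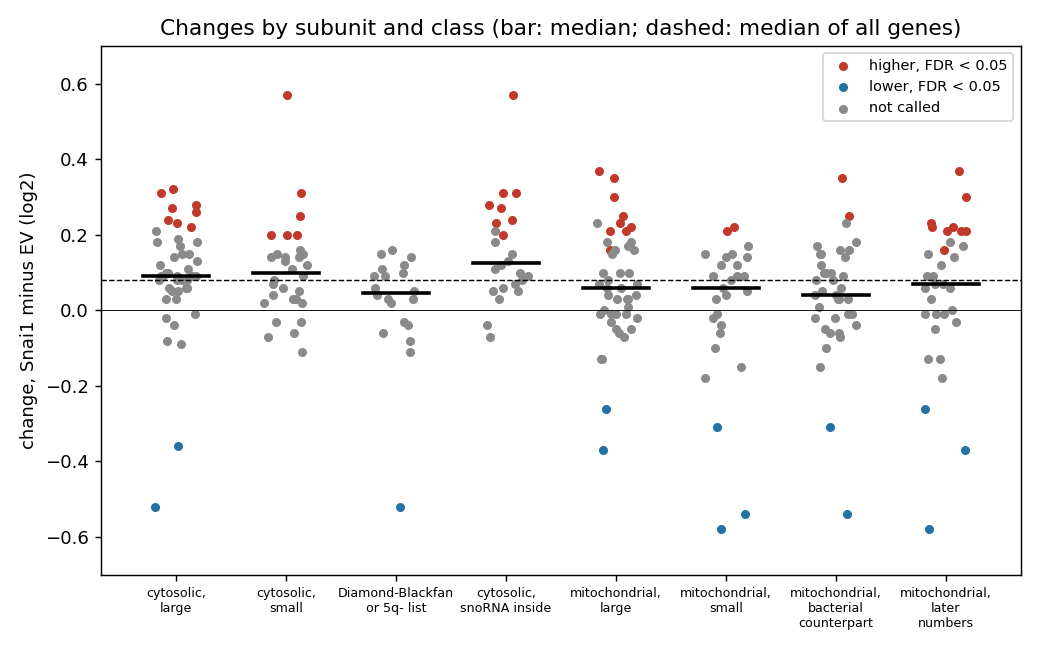
Change in log2 concentration, Snai1 minus EV, for members by subunit and class, 1 point per gene; the bar is the median of the class and the dashed line the median of all genes. Class medians lie between 0.04 and 0.125, and within every class shown the genes spread more widely than the medians differ.

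The 5 members on chromosome 16, Rpl35a, Rpl24, Mrps6, Mrpl39 and Mrpl40, were all called lower. Of all 333 genes with a window on that chromosome, 82.3% were called, 67.0% lower and 15.3% higher, and their median change was -0.35. Over all genes, chromosome 16 included, 19.6% were called higher and 10.3% lower. Off chromosome 16, the authors' deposited table had 14 of 72 cytosolic genes called higher (19.4%) and 0 lower. Of 69 mitochondrial genes there, 11 were called higher (15.9%) and 2 lower (2.90%), Mrps14 and Mrps23. Each member was therefore set against its neighbours, by subtracting the median change of the 61 nearest windows on its chromosome and testing the rest against the implied SE, adjusted over all windows by the Benjamini-Hochberg method (the local FDR).

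The neighbours' median was -0.40 at Rpl35a and -0.51 at Rpl24, and the remaining differences, -0.12 and 0.15, were not called (local FDR 0.310 and 0.246). At Mrps6 the neighbours' median was -0.53 and the difference -0.01, at Mrpl39 -0.54 and 0.17, at Mrpl40 -0.24 and -0.02 and at Mrps14 -0.24 and -0.07. None of these 4 differences was called. The same held on the other side for Rps20: its neighbours' median was 0.52, and the difference was 0.05 (local FDR 0.820). So 6 of the 7 decreases in the 2 families, and the largest increase, did not differ past the threshold from the neighbouring promoters. What moved these stretches of chromosome was not tested.

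Some members did differ from their neighbours past the threshold. Rpl37a was higher by 0.27 (neighbours' median 0.05, local FDR 0.0032) and Rpl6, a large subunit protein, by 0.24 (change 0.18, neighbours' median -0.06, local FDR 0.040). Mrpl12 was higher by 0.23 (neighbours' median 0.02, local FDR 0.0148). Lower than their neighbours were Mrps31 by -0.28 (change -0.18, neighbours' median 0.10, local FDR 0.0291) and Mrps23 by -0.67 (neighbours' median 0.09, local FDR 2e-05). The Mrps31 window was laid around a position 891 bp inside the gene, and its EV value was 9.59. The authors' own test had not called Rpl6 or Mrps31. After this subtraction 14.2% of all genes were called, 5.48% higher and 8.73% lower. In the cytosolic family the counts were 2 higher and 1 lower of 74, and in the mitochondrial family 1 higher and 2 lower of 72. With the median of all windows (0.08) subtracted instead, 7.24% of all genes were called higher and 13.8% lower, beside 3 higher and 2 lower cytosolic genes and 3 higher and 7 lower mitochondrial genes.

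**Figure D4:**
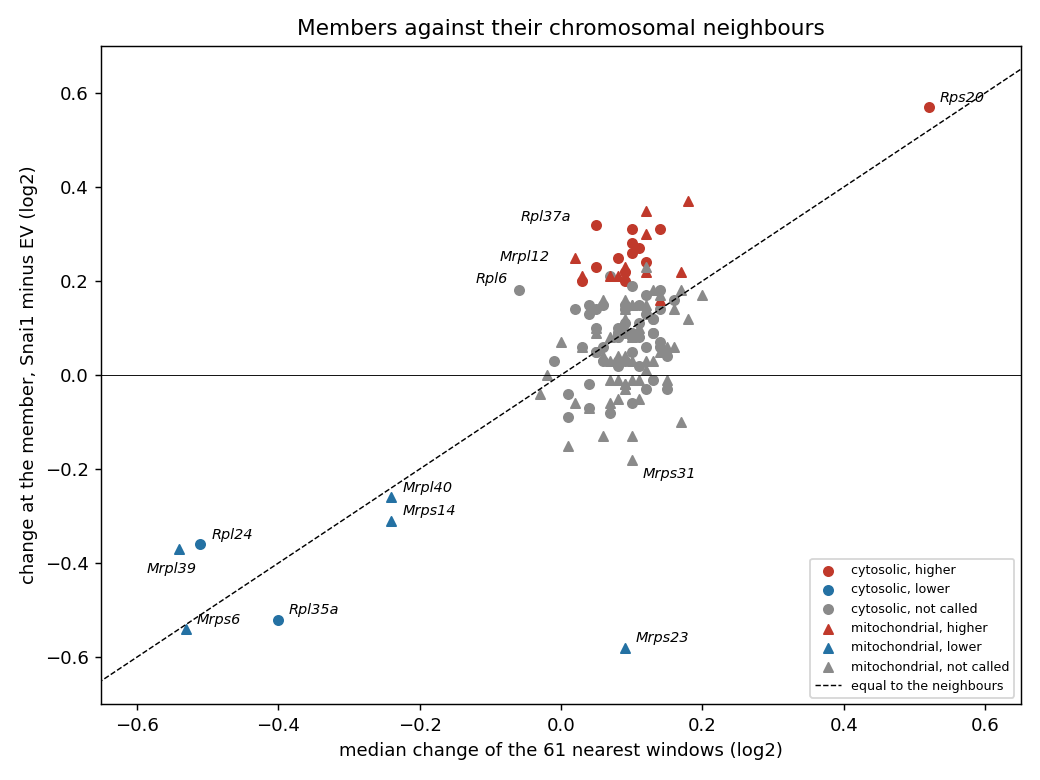
Change at members against the median change of their 61 nearest windows on the chromosome, both in log2 (Snai1 minus EV); circles are 72 of the 74 cytosolic and triangles the 72 mitochondrial genes, and colours give the authors' call. Rps20 at the upper right and the chromosome 16 genes at the lower left lie near the line of equal change, and Mrps23, with neighbours at 0.09, lies far below it.

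Some members start close to a gene on the other strand. A RefSeq gene start on the opposite strand within 1000 bp upstream was found for 23 mitochondrial genes (31.9%) and 9 cytosolic genes (12.2%). The share over all genes was not counted. Only protein-coding and lncRNA genes with a strand in the promoter table were searched, so members counted as having no partner may have one. The 23 had a median EV value of 11.18, against 10.37 for the other 49 mitochondrial genes, in the authors' deposited table. Windows of such pairs overlap and count some of the same reads, so their values are not independent measurements. Of 22 mitochondrial members whose partner also had a window, 18 differed from it by at most 0.05, and of 7 such cytosolic members 5 did. Mrps11 and Mrpl46, with starts 42 bp apart, are partners of each other and were each counted. Their changes were 0.05 and 0.07. Rps28 and the complex I gene Ndufa7 both had 0.11, Mrpl51 and the condensin gene Ncapd2 both had 0.16, and Mrpl40 and the histone chaperone gene Hira had -0.26 and -0.24. The exceptions were Mrps5 (-0.10, Zfp661 0.19), Mrpl54 (0.21, Apba3 0.00), Mrpl34 (0.03, Abhd8 0.18), Mrpl14 (-0.02, Tmem63b -0.11) and, in the cytosolic family, Rpl7a (0.27, Med22 0.21) and Rpl9 (-0.02, Lias 0.04).

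Promoter sequences from RefSeq, from 250 bases before to 50 after the start, matched the window within 100 bp for 55 cytosolic and 60 mitochondrial genes, and for 7765 of all genes. A run of at least 8 pyrimidines on the coding strand within 25 bases of the start was present at 28 cytosolic genes (50.9%), 11 mitochondrial genes (18.3%) and 18.1% of all genes, as at Rpl35a, Rpl28, Rpl7a and Rps9 in the lines above. The annotated transcript began on C at 19 cytosolic genes (34.5%), 7 mitochondrial genes (11.7%) and 14.7% of all. With the run, 4 of 28 cytosolic genes were called higher and 1 lower, and without it 5 of 27 and 1. Of the 19 that begin on C, 0 were called higher and 1 lower, and of the other 36, 9 higher and 1 lower, again beside 19.6% and 10.3% of all genes; none of these splits was tested.

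The letters CAGGTG, the E-box bound by Snail proteins, searched on both strands (CACCTG on the other), were present at 6 cytosolic genes (10.9%), 8 mitochondrial genes (13.3%) and 15.9% of all. The 14 were Rpl22, Rpl27, Rpl38, Rpl3l, Rpl41, Rps10, Mrpl21, Mrpl27, Mrpl34, Mrpl46, Mrpl55, Mrpl58, Mrps18a and Mrps18c. None of them was called in either direction in the authors' deposited table. Over all genes, 29.3% with these letters were called and 30.0% without. By direction, 208 of 1238 genes with the letters were called higher and 155 lower. Without them, 1293 of 6527 were higher and 664 lower, and the difference by direction was not tested. A match is a description of the sequence and not evidence of binding, and the window searched is shorter than the window counted.

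CCGGAAG, on both strands, was present at 21 cytosolic genes (38.2%), 23 mitochondrial genes (38.3%) and 21.5% of all. Of the 21 cytosolic genes none was called in either direction, while of the 34 without a match 9 were called higher and 2 lower. Of the 23 mitochondrial genes with a match, Mrpl57, Mrpl53 and Mrpl43 among them, 5 were called higher and 0 lower, and of the 37 without, 3 and 4. Among the lower genes without a match, Rpl35a, Rpl24, Mrpl39, Mrpl40 and Mrps6 lie on chromosome 16. Over all genes 30.6% with a match and 29.7% without were called. By direction, 391 of 1668 genes with a match were called higher and 119 lower. Without a match, 1110 of 6097 were higher and 700 lower. The palindromic site of NRF1, also searched as exact letters on both strands, was found at 1 cytosolic gene (1.82%), 3 mitochondrial genes (5%) and 2.52% of all, and AAGATGGCG, the site of YY1, at 4 (7.27%), 7 (11.7%) and 4.04%. The median GC content was 57.0% at cytosolic, 58.8% at mitochondrial and 61.3% at all promoters. None of these shares was tested.

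Genes that work with the ribosome were described from lists chosen by role. The counts called in each list stand beside 19.6% called higher and 10.3% lower over all genes, and no list was tested. Of the 34 genes named from these lists, 16 lost their call when the median of the nearest windows was subtracted, and the difference from the neighbours is given below for several of them. Of 63 cytosolic translation factors with a window (72 listed), 6 were called higher (9.52%) and 6 lower (9.52%). Their median change was 0.06 in the authors' deposited table. Those of smallest FDR were Eef1d (0.72, FDR 7.49e-10), part of the exchange factor for the elongation factor that delivers tRNA, Eif5a2 (0.68, FDR 9.34e-10) and Eef2k (0.34, FDR 1.42e-06), the kinase that inhibits elongation factor 2. Lower were Eif2b5 (-0.54, FDR 1.15e-10), the catalytic subunit of the exchange factor eIF2B, the scaffold Eif4g1 (-0.33, FDR 2.04e-05) and the helicase Eif4a2 (-0.38, FDR 3.06e-05), which all lie on chromosome 16. Against their neighbours Eif2b5 was still lower (-0.26), and Eif4g1 (-0.05) and Eif4a2 (-0.07) were not called. Of 5 regulators of initiation, the eIF2 kinase Eif2ak2 was called higher (0.20, FDR 0.0484). Eif2ak3 (0.18), Eif2ak4 (0.00), Eif4ebp1 (0.10) and Eif4ebp2 (-0.04) were not called.

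Of 93 genes of ribosome biogenesis (96 listed), 21 were called higher (22.6%) and 6 lower, with a median of 0.12. Rsl1d1 (0.42, FDR 1.06e-08), a nucleolar protein, and Rrn3 (0.42, FDR 1.87e-07), which brings RNA polymerase I to the rRNA genes, increased, and both lie on chromosome 16. Wdr3 (0.36, FDR 6.09e-07), a protein of the small subunit processome, also increased. Taf1a, a subunit of the polymerase I factor SL1, decreased (-0.81, FDR 1.34e-16), as did Lsg1 (-0.41, FDR 1.16e-05), a GTPase of the last steps of large subunit maturation, and Rrp15 (-0.37, FDR 5.72e-05). Against their neighbours Taf1a (-0.56), Rrn3 (0.28) and Wdr3 (0.20) were called, and Rsl1d1 (0.11), Lsg1 (0.02) and Rrp15 (-0.11) were not. The values before subtraction come from the authors' deposited table.

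Among 33 factors of mitochondrial translation and ribosome assembly (35 listed), the authors' deposited table had 4 called higher (12.1%) and 4 lower (12.1%). Their median was 0.07. Oxa1l (0.38, FDR 6.58e-04), which inserts newly made proteins into the inner membrane, and the RNA helicases Dhx30 (0.25, FDR 0.0115) and Ddx28 (0.25, FDR 0.0408) increased. Mterf4 (-0.37, FDR 1.08e-04), which acts in large subunit assembly, Rbfa (-0.33, FDR 0.00266), a small subunit assembly factor, and Tfb2m (-0.23, FDR 0.0174), a mitochondrial transcription factor, decreased. Against their neighbours Mterf4 (-0.29) and Rbfa (-0.40) were called, and Oxa1l (0.21), Dhx30 (0.14), Ddx28 (0.08) and Tfb2m (0.02) were not.

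The aminoacyl-tRNA synthetases, which charge tRNA, were split by compartment. Of 18 cytosolic ones (20 listed) 7 were called higher and 4 lower (median 0.14), led by Iars (0.32, FDR 4.42e-05), Vars (0.27, FDR 0.00121) and Nars (0.25, FDR 0.00403) above 0 and Dars (-0.51, FDR 2.31e-07), Wars (-0.41, FDR 1.97e-06) and Yars (-0.30, FDR 0.00279) below it; the values are from the authors' deposited table. Of 20 mitochondrial ones (20 listed), 3 were called higher and 2 lower (median 0.115). Among them were Yars2 (0.44, FDR 2.44e-08), Rars2 (0.41, FDR 4.39e-08) and Hars2 (0.18, FDR 0.0353), above 0, and Iars2 (-0.41, FDR 4.09e-06) below it. Against their neighbours Wars (-0.01), Nars (0.16), Hars2 (0.09) and Iars2 (-0.16) were not called, and the other synthetases named were.

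The products of the nuclear genes of the respiratory chain join those made by the mitochondrial ribosome. Of 70 such genes (88 listed), 10 were called higher (14.3%) and 10 lower (14.3%), with a median of 0.05. The complex I gene Ndufb2 (0.37, FDR 9.17e-07), the ATP synthase gene Atp5c1 (0.25, FDR 0.00170) and the complex IV gene Cox8a (0.22, FDR 0.00474) increased in the authors' deposited table. Ndufa13 (-1.41, FDR 8.34e-19) and Ndufa10 (-0.45, FDR 1.53e-07), also of complex I, and Atp5mpl (-0.48, FDR 1.68e-06) decreased. Against their neighbours Ndufb2 (0.25), Ndufa13 (-1.52) and Ndufa10 (-0.37) were called, and Atp5c1 (0.11), Cox8a (0.13) and Atp5mpl (-0.13) were not. The decrease at Ndufa13, from 8.63 to 7.23, was larger than at any ribosomal protein gene of either family.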

How the data were processed

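The submitters' processing notes name Bowtie2, DiffBind, fastp, Picard and the mm10 build. The sources used here do not give versions, the scaling, how reads that map to several places were treated, or a Tn5 shift. Ribosomal proteins have many processed pseudogenes, so reads from transcribed bases in a window may be split between copies. Per the file headers, the authors deposited log2 concentrations per group, the log2 fold, a p-value and an FDR; their fold, EV minus Snai1, was turned in sign. The deposited table has 0 columns of values per sample, so no model was fitted.

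Of 10274 rows, 3 exact repeats were dropped, leaving 10271 windows: 5251 of 2001 bp, from 1000 bp before to 1000 after a plus strand start, and 5020 of 1101 bp, to 100 bp after a minus strand start. Genes came from RefSeq (GRCm38.p6): 8957 windows were given a gene by a 5′ end within 1000 bp, 1269 by the only gene that spans them, and 45 none. Members' windows lay at the 5′ end for 69 cytosolic and 66 mitochondrial genes and inside the gene for the others; the promoter table gave the strand for 120 members. Each gene counted once, by its window of highest concentration (4 members had 2).

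The members and lists were chosen with earlier results of these data known. Named were, per family, all called members, the 3 highest and 3 lowest by concentration, the 2 uncalled members of largest change in either direction, the 2 nearest 0 and the anaemia list, and from other lists up to 3 called genes of smallest FDR per direction. Rpl6, and members named for a partner, a sequence or a motif, were chosen after their values were seen. Some genes that the rule takes are counted but not reported here by name. Where a change was under 0.1 or p was 0, the implied SE was the median of 1 of 20 accessibility bins (69 members). The subtraction tests, tested on simulated data, used Python 3.11.15, pandas 2.3.3, numpy 2.4.6 and scipy 1.17.1. Alternatives were another threshold, gene assignment, window width and centring.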

Additional observations from a re-analysis of the deposited data

How the results depend on the processing

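The calls rest on the authors' threshold and on the scale they chose. For cytosolic genes called higher, 14 became 5 at an FDR of 0.01, 3 with the median of all windows (0.08) subtracted, 2 with the median of the 61 nearest windows subtracted, 7 in the longer windows alone (41 genes), 7 in the shorter ones (33 genes) and 9 among the 56 genes with a strand in the promoter table, a setting added after seeing the data. The 2 higher with the nearest windows subtracted were Rpl37a and Rpl6, and Rpl6 was not among the 14. Cytosolic genes called lower went from 2 to 1 with the nearest windows subtracted, to 0 without chromosome 16 and to 0 in the shorter windows. That 1 gene was not called before the subtraction, and Rpl35a and Rpl24 both lost their call. Their median change of 0.09 became 0.01 and 0 under the 2 subtractions. For mitochondrial genes called higher, 11 became 5 at an FDR of 0.01, 3 and 1 under the subtractions, 6 in the longer windows (44 genes) and 5 in the shorter ones (28 genes). Those called lower went from 5 to 2 with the nearest windows subtracted, to 2 without chromosome 16, and to 3 in the longer and 2 in the shorter windows. With the nearest windows subtracted the 2 were Mrps23 and Mrps31, and Mrps31 was not among the 5. Their median of 0.06 became -0.02 under both. The counts by window width fall with the number of genes tested.

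With the median of all windows subtracted, 21% of genes were called, 7.24% higher and 13.8% lower, against 19.6% and 10.3% as deposited, so the split by direction turns on where 0 is set. With the nearest windows subtracted, 4 called genes among those named changed sign and lost their call, Rpl24 (0.15), Mrpl39 (0.17), Lsg1 (0.02) and Tfb2m (0.02), and 6 uncalled members changed sign, from values between 0.02 and 0.12. Of 62 members named by the rule given above, 28 lost their call and 1, Mrps31, gained one. Rpl6, which also gained a call, was named outside that rule and is not in this count. Of 34 genes named from the other lists, 16 lost theirs. The counts for an FDR of 0.1, other windows per gene, wider symbol rules and higher minimum concentrations stayed within 1.5 times. No paired analysis was possible because the table holds 1 value per group, and for the same reason no replicate could be left out. Precision was lowest for the least accessible windows, such as Rpl3l with an implied SE of 0.22.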
